A study of Mus musculus with 6 samples.

Results

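Lysine is broken down in mitochondria. Aass, the entry enzyme, joins lysine to 2-oxoglutarate to form saccharopine and then splits it. Aldh7a1 oxidises the aldehyde that results, Aadat transfers the amino group away, Dhtkd1 is the subunit that decarboxylates 2-oxoadipate, and Gcdh oxidises glutaryl-CoA to crotonyl-CoA, which is then turned into acetyl-CoA. The pathway is best known in liver, kidney and brain, and inherited defects of these enzymes cause hyperlysinaemia, pyridoxine-dependent epilepsy and glutaric aciduria. The mRNA levels of these 5 genes are described here, out of 22602 genes listed for mouse embryonic stem (ES) cells. They were chosen by symbol. Aass heads the set because it was lower in the Sim2 clones in this same comparison, so its values are a description with no test, and the other 4 were chosen for their place in the pathway.

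The study mapped where Sim2, a bHLH-PAS transcription factor, binds DNA in mouse ES cells. To follow up its target genes, it also measured mRNA levels with Sim2 switched on, and only these levels are used here. Clones A6, B8 and C4 carry a Flag-tagged mouse Sim2 gene with IRES-Venus at the ROSA26 locus, under the hCMV*-1 promoter that a tetracycline-regulated transactivator drives once tetracycline is removed, and EB3 (EBRTcH3) is the parental line without the Sim2 transgene. Tetracycline had been absent for 26 h in all 6 cultures, and no culture with tetracycline is compared here. Each Sim2 library is 1 culture of 1 clone, so clone and transgene effects cannot be told apart within a clone. Between the groups, the making and selection of a clone goes with the transgene, so these cannot be told apart either. The 3 EB3 libraries are separate cultures of 1 line. Levels are given in RPKM, reads per kilobase of cDNA scaled to library depth. This scaling leaves other differences between libraries in place, such as a trend of EB3-0 with cDNA length described below. Recovered depth ran from 25095861 to 28269340 reads, and 1 read in a cDNA of 2 kb was worth 0.0177 to 0.0199 RPKM. Intervals and floors from reads cover counting error only. Sim2 itself was at 168.4 to 212 RPKM in the clones against 0.0917 to 0.130 in EB3. EB3-1 and EB3-2 lay close together (Pearson's r = 0.997 across tested genes), while EB3-0 had r = 0.980 with EB3-1 and B8 had r = 0.979 with A6.

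The cells carried ES cell markers in every library. All 9 markers on a list from Pou5f1 to Utf1 were tested and none was called, and their summed level was 6212 to 7282 RPKM in the clones against 6209 to 7880 RPKM in EB3. Of 9 liver and endoderm markers, the list that bears most on a pathway known from liver, none passed the filter on low values. Their summed level was 2.14 to 2.32 RPKM in the clones against 1.29 to 1.77 RPKM in EB3, and Ttr was at 0 in all 6 libraries. Of 7 fibroblast markers only Thy1 passed the filter, Postn was at 0 in all libraries, and the sums overlapped at 11.3 to 14.6 RPKM in the clones against 10.8 to 14.04 RPKM in EB3. Of 5 trophoblast markers only Eomes passed, with sums of 2.70 to 4.75 RPKM in the clones against 2.13 to 2.34 in EB3. The 5 neural markers summed to 85.1 to 106 RPKM in the clones against 125 to 143 in EB3. Among these, Tubb3 was at 81.2 ± 12.6 against 123 ± 10.1 RPKM and Nes at 8.84 ± 0.466 against 5.93 ± 0.158 RPKM (SD, 3 libraries each), with adjusted p = 0.0751 and 0.0787 from limma. The liver, trophoblast and neural sums did not overlap between the groups. Neither did the values of 26.1% of single tested genes, but no such share was measured for sums. Few genes carried each sum, with Tubb3 the largest in the neural list and Gata4 in the liver list. Krt7 of the trophoblast list ran from 0.401 RPKM in C4 to 2.52 RPKM in B8. No shift of a cell type is read from these sums. The part of these markers in the levels of the lysine enzymes was not tested. In bulk RNA a smaller number of cells that express a gene and less RNA per cell cannot be told apart.

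Of the 5 enzymes, Aass alone was lower in every clone than in every EB3 culture. Aldh7a1 and Gcdh had group means of 19.3 to 22.6 RPKM, Dhtkd1 had means of 6.49 and 5.59 RPKM, and Aadat was at 0 in 5 libraries. Differences between groups were tested with limma on log2(RPKM + 0.5) over 11595 genes with a mean of at least 1 RPKM, and an adjusted p under 0.05 was called. Of these genes 0.699% were called in either direction, 0.354% lower in the clones and 0.345% higher. 4 of the 5 enzymes were tested, and Aass was the only one called. This count follows from the choice of Aass and nothing is read from it.

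**Figure D1:**
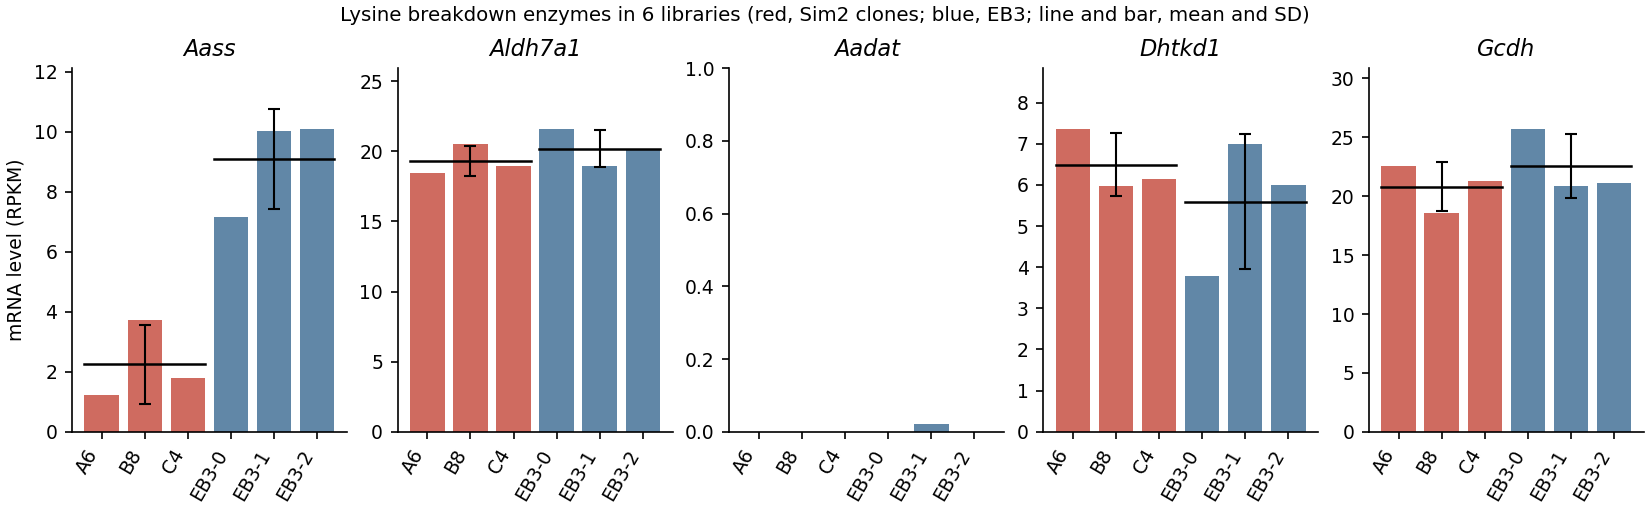
mRNA level in RPKM (y axis, starting at 0, a separate scale for each gene) of the 5 enzymes in clones A6, B8 and C4 (red bars) and in the 3 EB3 cultures (blue bars), with the group mean as a line and the SD as a bar (n = 3; not drawn for Aadat). Aass is at most 3.74 RPKM in the clones and at least 7.16 RPKM in EB3, while the bars of Aldh7a1, Dhtkd1 and Gcdh overlap between the groups.

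Aass (chromosome 6, 23022173 to 23082986, minus strand, mm9) encodes aminoadipate-semialdehyde synthase, which holds both the lysine-ketoglutarate reductase and the saccharopine dehydrogenase activity. An annotated transcript with the deposited cDNA length of 3701 bases has 24 exons, a 5′ UTR of 121 bases, a coding part of 2781 bases and a 3′ UTR of 799 bases. A6, B8 and C4 held 1.22, 3.74 and 1.81 RPKM, from 113, 357 and 189 reads. In EB3-0, EB3-1 and EB3-2 it was 7.16, 10.02 and 10.1 RPKM, from 723, 992 and 976 reads. The groups did not overlap, as was the case for 26.1% of tested genes, with the clones below in 13.4%. The lowest EB3 culture held 1.91 times the level of the highest clone.

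The 250 bases before the listed start of Aass and of Dhtkd1 are shown because these are the 2 genes whose order of level differed between EB3 and the clones. They were read from the mouse genome build NCBIM37 (mm9) on the strand of the gene and end at the base before the start, at chr6:23082987-23083236 and chr2:5863839-5864088, both on the minus strand. Capitals mark CCAAT or its reverse complement ATTGG, a motif chosen after the sequences were seen.
Aass: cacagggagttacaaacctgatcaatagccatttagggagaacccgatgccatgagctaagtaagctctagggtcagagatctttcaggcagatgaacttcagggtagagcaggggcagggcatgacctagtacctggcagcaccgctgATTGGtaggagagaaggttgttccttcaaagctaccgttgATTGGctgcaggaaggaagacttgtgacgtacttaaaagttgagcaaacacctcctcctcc
Dhtkd1: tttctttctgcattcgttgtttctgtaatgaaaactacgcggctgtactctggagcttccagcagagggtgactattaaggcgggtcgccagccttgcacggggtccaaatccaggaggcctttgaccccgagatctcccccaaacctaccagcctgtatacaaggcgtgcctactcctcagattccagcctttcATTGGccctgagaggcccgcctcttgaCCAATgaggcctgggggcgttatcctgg
CCAAT was found in the windows of 3 of the 5 enzymes, and in 35.4% of the 22599 windows of this length before listed genes. Aass held 2 on the reverse strand, Dhtkd1 1 on each strand and Gcdh 1 on the forward strand. ACGTG, the core that bHLH-PAS factors bind together with Arnt, was sought on both strands as well. It was found before 17.8% of listed genes and in the windows of 0 of the 5 enzymes, which says only that these letters are not in these windows. Since ACGTG was not found, no match of one motif overlapped the other in these windows. GC content was 50.0% in the window of Aass and 55.6% in that of Dhtkd1, against 72.8%, 61.2% and 53.6% for Aldh7a1, Aadat and Gcdh.

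The mean of Aass was 2.26 ± 1.32 RPKM in the clones against 9.09 ± 1.68 RPKM in EB3 (SD, 3 libraries each). The clones thus held 24.8% of the EB3 level, and the EB3 mean was 4.03 times theirs. On the log2(RPKM + 0.5) scale the difference was -1.89 with a standard error of 0.31 and a 95% interval of -2.61 to -1.17, the 3rd lowest value of the 11595 tested genes. Its adjusted p of 0.0443 from limma, which put it 73rd of the 81 called genes, belongs to the choice of the gene. The call was lost in 8 of 16 other settings. Among these were the fits without A6, without C4, without EB3-1 and without EB3-2, where the difference ran from -1.81 to -1.60. It was kept without B8, at -2.25, and without EB3-0, at -2.04.

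The clones differed among themselves in Aass more than they did in most genes. B8 held 3.08 times the level of A6 and 2.07 times that of C4, and C4 held 1.48 times that of A6. Measured from each clone, the EB3 mean was 7.48 times the level of A6, 5.03 times that of C4 and 2.43 times that of B8. The SD of log2(RPKM + 0.5) over the 3 clones was 0.67, above that of 98.6% of tested genes. Over the EB3 cultures it was 0.27, above that of 78.4%. EB3-0, the lowest control, stood below EB3-1 by a factor of 1.40. With the trend on cDNA length removed, Aass was at 7.73 RPKM in EB3-0 and 9.75 RPKM in EB3-1. EB3-0 was still the lowest control.

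Aldh7a1 (chromosome 18, 56685390 to 56732593, minus strand) encodes antiquitin, the aldehyde dehydrogenase that turns aminoadipate semialdehyde into aminoadipate and also serves the pipecolate branch. It was at 18.5, 20.5 and 19.0 RPKM in A6, B8 and C4. The EB3 cultures held 21.6, 18.9 and 20.1 RPKM. The groups overlapped, with EB3-0 highest and A6 lowest, and no library stood far from the others. The means were 19.3 ± 1.07 and 20.2 ± 1.34 RPKM (SD, 3 libraries each). The difference was -0.06 on the log2 scale with a standard error of 0.10 and a 95% interval of -0.29 to 0.17 (limma, adjusted p = 0.789). The 2-sided exact permutation test gave p = 0.5, where 0.1 is the smallest that 3 libraries against 3 allow. The listed spans of Aldh7a1 and Phax, on the opposite strand, share 69 bases. Taken over all annotated transcripts, their exons share 300 bases. Whether counting used the strand was not given in the sources used here. Phax was at 46.6 to 51.5 RPKM in the clones against 52.4 to 57.9 RPKM in EB3, and its part in the level of Aldh7a1 was not tested.

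Aadat (chromosome 8, 62984921 to 63024474, plus strand) encodes the aminotransferase that turns aminoadipate into 2-oxoadipate and also acts on kynurenine. It was listed at 0 in A6, B8, C4, EB3-0 and EB3-2. EB3-1 held 0.0210 RPKM, which is 1 read. A floor of 3 reads per library corresponds to 0.0596 to 0.0672 RPKM for its cDNA of 1780 bases, and all 6 libraries were below it, so no fold change is given. Aadat did not pass the filter and was not tested.

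Dhtkd1 (chromosome 2, 5819106 to 5863838, minus strand) encodes the E1 subunit of the 2-oxoadipate dehydrogenase complex, which works with Dlst and Dld. Its level was 7.36, 5.97 and 6.13 RPKM in A6, B8 and C4. In the EB3 cultures it was 3.78, 6.99 and 6.004 RPKM. EB3-0 was the lowest library and the other 5 lay close together, with EB3-1 and EB3-2 inside the range of the clones. The means were 6.49 ± 0.759 and 5.59 ± 1.64 RPKM (SD, 3 libraries each). The difference was 0.23 on the log2 scale with a standard error of 0.21 and a 95% interval of -0.26 to 0.72 (limma, adjusted p = 0.617), with p = 0.5 in the exact permutation test. The sign rested on EB3-0, and without it the difference was -0.0038 (adjusted p = 0.988 from limma). Over EB3 the SD of the log2 values was 0.42, above that of 93.5% of tested genes, against 0.15 over the clones. EB3-0 also differed from the other libraries in how levels went with cDNA length, and with that trend removed its value was 4.06 RPKM, still the lowest.

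Gcdh (chromosome 8, 87410286 to 87417820, minus strand) encodes glutaryl-CoA dehydrogenase, which passes its electrons to the electron transfer flavoprotein. It was at 22.6, 18.6 and 21.3 RPKM in A6, B8 and C4. The EB3 cultures held 25.7, 20.9 and 21.1 RPKM. EB3-0 was highest, B8 was lowest and the groups overlapped. The means were 20.8 ± 2.05 and 22.6 ± 2.74 RPKM (SD, 3 libraries each). The difference was -0.11 with a standard error of 0.12 and a 95% interval of -0.39 to 0.17 on the log2 scale (limma, adjusted p = 0.685), with p = 0.6 in the exact permutation test. Its listed span and that of Syce2 on the opposite strand shared 1060 bases but 0 annotated exon bases.

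The order of the levels differed between the groups in the places of Aass and Dhtkd1. In EB3, Gcdh and Aldh7a1 were highest and their ranges overlapped, Aass came next, then Dhtkd1 and Aadat. In the clones Gcdh and Aldh7a1 again overlapped at the top, and Dhtkd1, at 5.97 to 7.36 RPKM, stood above Aass, at 1.22 to 3.74 RPKM. The ratio of Aass to Dhtkd1 was 0.165, 0.627 and 0.294 in A6, B8 and C4. In EB3-0, EB3-1 and EB3-2 it was 1.89, 1.43 and 1.68. For this pair, whose upstream windows are printed, every EB3 culture thus held more Aass than Dhtkd1 per base of cDNA, and every clone held less. The ratio of Aass to Gcdh was 0.0539, 0.202 and 0.0848 in the clones against 0.278, 0.480 and 0.479 in EB3. Aass was chosen for being lower in the clones, so the gap in its ratios follows from that choice and nothing is read from it. The ratio of Gcdh to Aldh7a1, neither of which was chosen for its level, ran from 0.905 to 1.22 over the 6 libraries and its groups overlapped.

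**Figure D2:**
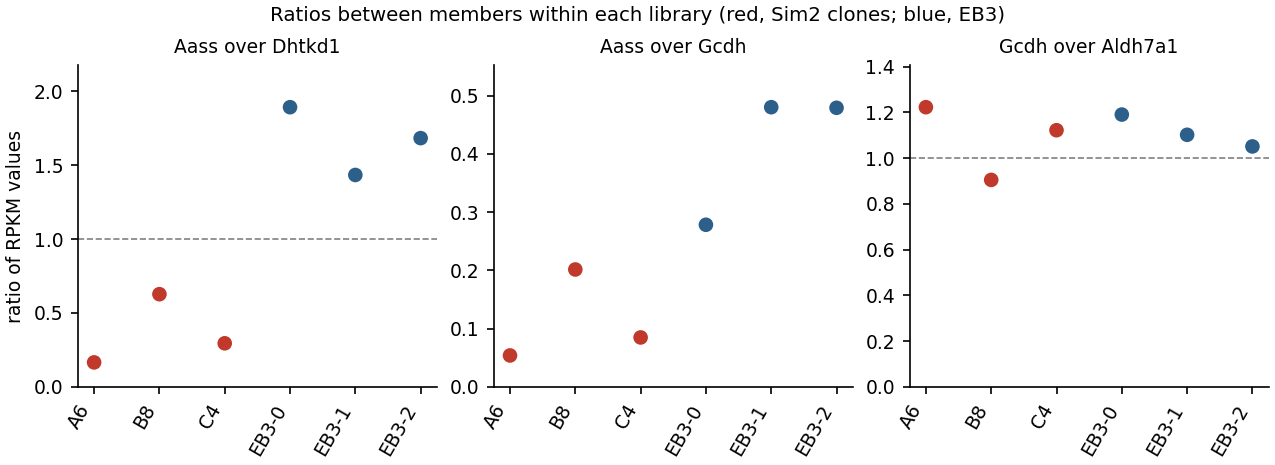
Ratios of RPKM values within each library (y axis, starting at 0) for Aass over Dhtkd1, Aass over Gcdh and Gcdh over Aldh7a1 in the 3 Sim2 clones (red points) and 3 EB3 cultures (blue points); the dashed line marks equal levels. Aass over Dhtkd1 is at most 0.627 in the clones and at least 1.43 in EB3, and Gcdh over Aldh7a1 is from 0.905 to 1.22. Aass was chosen for being lower in the clones, so its ratios are a description.

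The rest of lysine breakdown was described with 5 lists of 21 other genes, which cover lysine entry, the pipecolate and hydroxylysine branches, the partners of Dhtkd1, the electron acceptors of Gcdh and the steps from crotonyl-CoA to acetyl-CoA. All 21 are in the table and 17 were tested. None was called by limma, against 0.699% of all tested genes, and 2 of the 17 had an unadjusted p under 0.05, against 17.8% of all tested genes. None was called with voom weights on recovered reads. The differences were negative for 10 genes and positive for 7, with a median of -0.02 and a range from -0.39 to 0.32. Over all tested genes the median was -0.01, and 50.9% were negative. The clones lay wholly below EB3 for 3 of the 17 genes and wholly above for 1, against 13.4% and 12.7% of all tested genes.

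**Figure D3:**
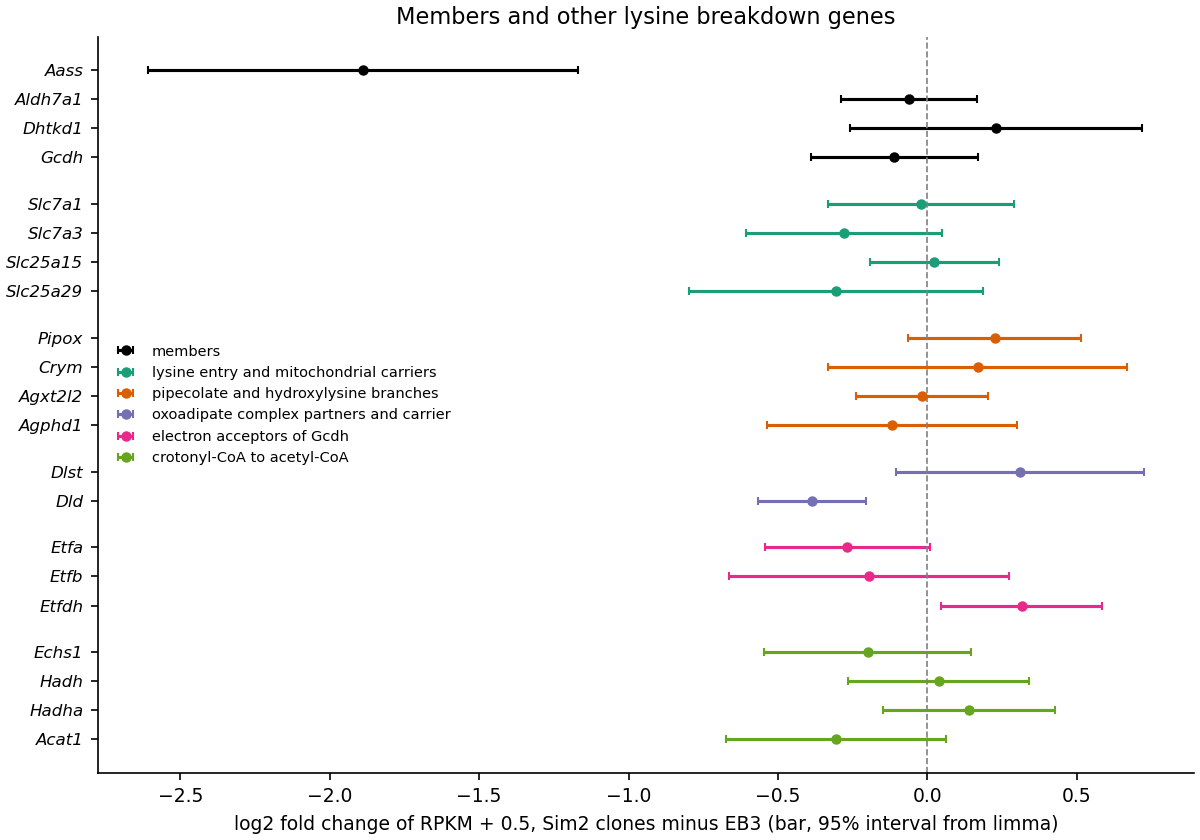
Log2 fold change of RPKM + 0.5 (x axis, Sim2 clones minus EB3) with the 95% interval from limma for the 4 tested enzymes (black) and the 17 tested genes of the 5 lists (a colour for each list). The point of Aass is at -1.89, and the 17 listed genes lie between -0.39 and 0.32.

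Dld, the dihydrolipoamide dehydrogenase shared by all 2-oxoacid dehydrogenase complexes and a partner of Dhtkd1, had the smallest p of these genes. It was at 36.2, 34.9 and 37.2 RPKM in A6, B8 and C4. In EB3-0, EB3-1 and EB3-2 it was 47.0, 47.6 and 47.3 RPKM. The groups did not overlap, and both were tight. The difference was -0.39 with a standard error of 0.08 on the log2 scale (limma, adjusted p = 0.0744), which did not pass the threshold. It passed without EB3-0 (adjusted p = 0.0308) and with the trend on cDNA length removed (adjusted p = 0.0456, limma). With the trends on both GC content and cDNA length removed, a setting added after the data were seen, it was -0.14 (adjusted p = 0.388, limma).

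Dlst, the succinyltransferase of the same complex, was at 49.3, 78.1 and 46.7 RPKM in the clones against 47.7, 44.3 and 44.4 RPKM in EB3. B8 alone stood high, and the difference was 0.31 ± 0.18 (SE; limma, adjusted p = 0.419). The 73 tested genes within 5 Mb of Dlst on chromosome 12 had a median log2 ratio to the EB3 mean of 0.43 in B8, against 0.03 in A6 and -0.03 in C4. The part of that stretch in the level of Dlst was not tested. Slc25a21, which carries oxoadipate into mitochondria, was at 0 in EB3 and at 0.0153 to 0.0893 RPKM in the clones and was not tested. For scale, 1 read in a cDNA of 2 kb was worth 0.0177 to 0.0199 RPKM, and nothing is read from these levels.

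The electron acceptors of Gcdh had differences of both signs, and none was called. Etfdh, which hands the electrons on to ubiquinone, was at 20.7, 17.7 and 19.0 RPKM in the clones against 14.8, 13.9 and 17.2 RPKM in EB3. All clones lay above all EB3 cultures, and the difference was 0.32 ± 0.12 (SE; limma, adjusted p = 0.215). Etfa, a subunit of the flavoprotein itself, was at 6.53 ± 0.552 RPKM in the clones against 7.95 ± 0.297 RPKM in EB3 (SD, 3 libraries each), with a difference of -0.27 ± 0.12 (SE; limma, adjusted p = 0.296). The last list ran from 0.14 for Hadha to -0.31 for Acat1, the thiolase that ends the pathway, and Acat1 was lower in all clones at 2.71 ± 0.446 against 3.45 ± 0.274 RPKM (adjusted p = 0.368, limma).

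Among genes of lysine entry, Slc7a3, a cationic amino acid transporter of the plasma membrane, was the most abundant at 118 ± 25.1 RPKM in the clones against 142 ± 6.47 RPKM in EB3 (SD, 3 libraries each). B8, at 147 RPKM, lay inside the EB3 range and A6 and C4 below it (a log2 difference of -0.28, with adjusted p = 0.353 in limma). The list ran from -0.31 for Slc25a29, a mitochondrial carrier of basic amino acids, to 0.02 for Slc25a15, the ornithine carrier. In the pipecolate and hydroxylysine branches all 4 genes were tested and the median difference was 0.07. Pipox, which oxidises pipecolate, held 27.2, 33.9 and 24.5 RPKM in the clones against 25.1, 23.6 and 23.6 in EB3, so only C4 lay inside the EB3 range. Its difference of 0.23 was not called (adjusted p = 0.399, limma). The lowest of that list was Agphd1, the hydroxylysine kinase, at -0.12.

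Other breakdown pathways and enzyme families held no called gene under the reported setting or with voom weights. The counts of unadjusted p-values under 0.05 given for them stand beside 17.8% of all tested genes. Of 11 kynurenine pathway genes, which share Aadat with lysine breakdown, 4 were tested, 3 were at 0 in all libraries, and the 4 ran from -0.10 for Ccbl2 to 0.17 for Afmid. Of 39 genes that break down other amino acids 29 were tested, with a median of -0.05, 19 negative values and 6 unadjusted p-values under 0.05. They ran from -0.39 for Pcca, a subunit of propionyl-CoA carboxylase, to 0.26 for Amt of the glycine cleavage system. The 10 acyl-CoA dehydrogenases related to Gcdh had a median of -0.08, from -0.39 for Acad11 to 0.22 for Acad8, and 1 of them had an unadjusted p under 0.05.

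Relatives of Aldh7a1 ran from -0.77 to 0.59 on the log2 scale, and none was called. Of these 18 aldehyde dehydrogenases 12 were tested, with a median of 0.12 and 5 unadjusted p-values under 0.05, where all tested genes gave 17.8%. Aldh1a2, which makes retinoic acid, was lowest, with 0.968, 0.309 and 0.781 RPKM in the clones against 1.57, 1.52 and 1.30 RPKM in EB3. The groups did not overlap, and the difference was -0.77 ± 0.24 (SE; limma, adjusted p = 0.163). Aldh1b1, a mitochondrial form, was highest, with 5.52, 7.92 and 5.30 RPKM in the clones against 5.00, 3.85 and 3.11 RPKM in EB3. These groups did not overlap either, at 0.59 ± 0.21 (SE; limma, adjusted p = 0.199). Of the 12 tested, the clones lay wholly below EB3 for 3 and wholly above for 2, against 13.4% and 12.7% of all tested genes. Among the 6 E1 subunits related to Dhtkd1, Ogdh of the 2-oxoglutarate dehydrogenase complex was highest, with 34.8 to 35.1 RPKM in the clones against 28.6 to 30.2 RPKM in EB3. Its difference was 0.24 ± 0.08 (SE; limma, adjusted p = 0.181). Bckdhb, of the branched-chain complex, was lowest at -0.32 (adjusted p = 0.229, limma), and 3 of the 6 had an unadjusted p under 0.05, again beside 17.8% of all tested genes.

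The genes around Aass on chromosome 6 were examined next. The nearest listed gene on one side, Ptprz1, a receptor phosphatase 19.3 kb away, was at 0.114 to 0.228 RPKM and was not tested. On the other side Fezf1, a zinc finger factor 112 kb away, was at 0 in all 6 libraries. The 6 tested genes within 5 Mb of Aass (Naa38, Ing3, Fam3c, Ndufa5, Wasl and Pot1a) were all lower in the clones, from -0.38 to -0.15 with a median of -0.20, and none was called. Their median log2 ratio to the EB3 mean was -0.23, -0.20 and -0.19 in A6, B8 and C4. The medians of EB3-0, EB3-1 and EB3-2 were -0.07, 0.01 and -0.04. For these the reference left out the library being measured, so it differed from that of the clones. These medians were alike in the 3 clones, while Aass itself was at -2.47, -1.16 and -2.04 in A6, B8 and C4.

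**Figure D4:**
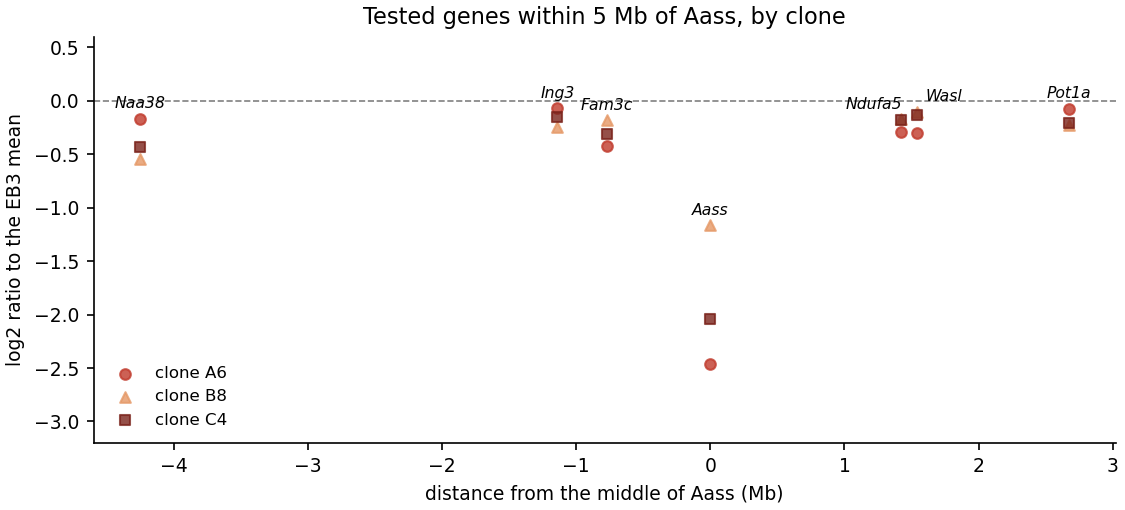
Log2 ratio of each clone to the EB3 mean (y axis, RPKM + 0.5) for Aass and the 6 tested genes within 5 Mb (x axis, distance from the middle of Aass in Mb), with a symbol for each clone. The neighbours are slightly below 0 in all 3 clones, and Aass is at -2.47, -1.16 and -2.04 in A6, B8 and C4.

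The neighbours of the other 4 enzymes gave no called gene within 5 Mb, where 28 genes were tested around Aldh7a1, 16 around Aadat, 26 around Dhtkd1 and 74 around Gcdh. The medians there were 0.04, -0.10, 0.02 and -0.02. Next to Dhtkd1, Sec61a2 and Upf2 differed by -0.03 and 0.04 on the log2 scale. Syce2, which overlaps Gcdh, was at -0.45 (adjusted p = 0.148, limma), and Farsa on its other side was at 0.004. Klf1, the other gene next to Gcdh, was not tested. Gramd3, next to Aldh7a1, was at -0.23 (adjusted p = 0.517, limma), while 1700065I17Rik beyond its other end and BC030500 and Mfap3l on the sides of Aadat were not tested.

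The 5 tested genes whose levels were most like those of Aass over the 6 libraries were D4Wsu53e, Dhcr7, Nap1l1, Yipf5 and Nusap1, with Pearson's r of log2(RPKM + 0.5) of 0.998, 0.992, 0.991, 0.984 and 0.984. The points share libraries and depth, and 207 tested genes (1.79%) had r above 0.9. They were picked for this likeness, so their order of A6, C4, B8 and then EB3 follows from the choice. The sign of their differences between the groups follows from it too. These 5 genes varied over a far smaller range than Aass. Dhcr7, which makes the last step of cholesterol synthesis, went from 15.7 RPKM in A6 to 20.8 RPKM in EB3-1, and Nap1l1, a nucleosome assembly protein, from 75.3 to 110 RPKM. Their differences between the groups ran from -0.43 to -0.23 and none was called. The other tested enzymes of lysine breakdown were less like Aass, with r = 0.49 for Aldh7a1, -0.35 for Dhtkd1 and 0.04 for Gcdh. Aass was chosen for being lower in the clones, so nothing is read from these values.

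No other stretch of the genome matched the transcript of any of the 5 enzymes over at least 100 bases at 90% identity or more, so near-identical copies that could share reads were not found.

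**Figure D5:**
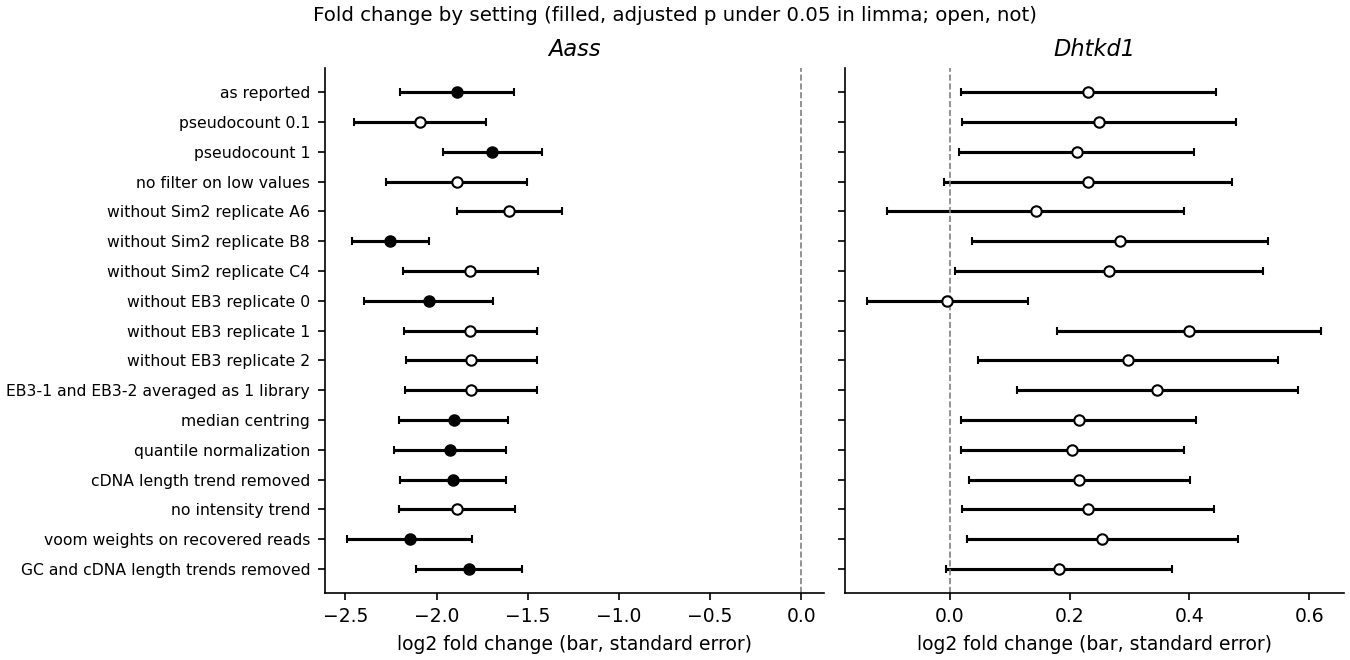
Log2 fold change (x axis, Sim2 clones minus EB3, with the standard error) of Aass and Dhtkd1 under the reported setting and 16 others, filled where the adjusted p from limma was under 0.05. Aass stays between -2.25 and -1.60 and is called in 9 of the 17 settings, and Dhtkd1 lies at -0.0038 without EB3-0 and above 0 in the others. Aass was chosen for being lower in these same libraries.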

How the data were processed

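mRNA was sequenced from 3 Sim2 clones (A6, B8, C4) and 3 EB3 cultures (0, 1, 2), grouped by their labels. Libraries were made with the TruSeq RNA kit and sequenced as read pairs. The authors mapped reads to mm9 with BWA (named in the submitters' processing notes; version not given in the sources used here), computed exon coverage per RefSeq gene and deposited it as RPKM; their own test, a count model, is not used here. How reads with several positions were treated was not given in the sources used here. All 6 columns of values were used and 0 left unused. Reads were recovered by dividing RPKM times cDNA length by the smallest step of each library, which left whole numbers for 100% of values (tolerance 0.01). In each library fewer genes held 1 recovered read (177 to 232 genes) than 2 (724 to 777 genes). Whether the reads of a pair were counted apart was not given in the sources used here, so recovered reads may exceed the number of sequenced fragments.

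RPKM are not counts, so log2(RPKM + 0.5) was tested with limma 3.58.1 (R 4.3.3; lmFit and eBayes with an intensity trend), with no covariate, for 11595 genes (51.3%) with a mean of at least 1 RPKM, and p-values were adjusted by Benjamini-Hochberg over all of them. Fold changes on this scale understate those of low genes. The fit was tested on simulated data. Exact permutation tests used scipy 1.17.1. P-values measure the spread between these libraries. Alternatives were other pseudocounts, no filter, each library left out, EB3-1 and EB3-2 averaged, other centring, trends with cDNA length or GC content removed, no intensity trend, and voom weights on recovered reads; the last stands in for a count test.

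Named genes are the 5 enzymes, the highest and the lowest tested gene of each list, the 5 genes most like Aass, the neighbours of each enzyme, and Sim2. Slc7a3, Slc25a21 and the markers were named after their values were seen, as the rule did not name them. Dlst, Etfa, Pipox and Acat1 fell under the rule as the highest or the lowest of their lists. The enzymes and lists were chosen with earlier results of these data known. Listed positions overlapped an mm9 annotation (GENCODE) for 98.9% of 21655 symbols. Transcripts were compared with the genome by blastn 2.17.0. The markers Tfap2c and Map2 and the protein sequences were not analysed here.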

Additional observations from a re-analysis of the deposited data

How the results depend on the processing

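Aass was lower in the clones under all 16 alternatives, from -2.25 to -1.60 on the log2 scale, with adjusted p from 0.0217 to 0.198 in limma. Aass was chosen for being lower in these same libraries, so its sign and p-values here are a description with no test. Its call was lost with a pseudocount of 0.1 (-2.09, adjusted p = 0.0542), with no filter on low values (-1.89, adjusted p = 0.175), with the mean of EB3-1 and EB3-2 taken as 1 library (-1.81, adjusted p = 0.180) and with no intensity trend (-1.89, adjusted p = 0.0671). Leaving out 1 library gave -2.25 to -1.60 (adjusted p 0.0294 to 0.198). The count of called enzymes, 1 as reported, was therefore 0 under those 4 alternatives and 0 to 1 with 1 library left out. Aldh7a1 (-0.11 to -0.01) and Gcdh (-0.17 to -0.02) kept their sign and were not called under any of the 16. Dhtkd1 changed sign only without EB3-0 (-0.0038) and was 0.40 at most. Aadat was under the filter and is given no value under the alternatives.

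Over all tested genes the 81 calls became 23 with no filter on low values, 30 with no intensity trend, 6 with EB3-1 and EB3-2 averaged as 1 library, 250 with the trend on cDNA length removed, and 187 with the trends on GC content and length removed, an alternative chosen after the data were seen. The share of higher calls, 49.4% as reported, was 60.4% in that last fit, 55.2% with the length trend alone removed, 51.8% with quantile normalization, 39.4% with median centring and 34.8% with no filter. It ran from 30.0% (without A6) to 71.4% (without C4) with 1 library left out. Leaving out 1 library gave 6 (without EB3-1 or EB3-2) to 694 (without EB3-0). The list of partners of Dhtkd1 went from 0 calls to 1, Dld, with the length trend removed, and to 0 to 1 with 1 library left out; the other 9 lists held 0 calls throughout. The causes were not tested. No paired analysis was possible because the clones and the EB3 cultures share no replicate number.

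For Aadat, 3 reads are worth up to 0.0672 RPKM, and no library reached them. The 3 libraries a group and the closeness of EB3-1 and EB3-2 limit the rest.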
